A study of Mus musculus with 6 samples.

Results

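Multi-way chromatin interactions were compared between 2 viewpoints of the mouse α-globin locus in D3839 erythroid cells: R2, an α-globin enhancer in an intron of Nprl3, and the promoter of Mpg, a gene that starts inside the 3′ end of Nprl3. The comparison used the 3 D3839 samples among the 6 samples of the series. Each sample had been read from both viewpoints in a single 3C library, so 6 of the 12 tables of fragment pairs were compared, R2 against Mpg within a sample. D3839 mice carry short deletions, made by TALEN and CRISPR-Cas9 editing, of the core CTCF motifs of HS-38 and HS-39, the pair of CTCF-binding sites between Mpg and the α-globin enhancers. The other 3 samples are wild type (WT) and served as the reference for how the viewpoints differ where both sites are intact. All samples were Ter-119+ erythroid cells from phenylhydrazine-treated spleens of female C57BL/6 mice, and the labels call them biological replicates 1 to 3 of each genotype. Phenylhydrazine destroys red cells and so fills the spleen with maturing erythroid cells. The D3839 and WT libraries were made with different library preparation kits (NEBNext Ultra II for D3839, the standard NEBNext master mix kit for WT), which cannot be told apart from the genotype in any contrast of D3839 with WT, while R2 and Mpg of a sample share the kit. The tables name fragments by reference coordinates, so neither the deletions nor the identity of the cells can be read in them.

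The mouse α-globin genes are switched on in maturing red cells by a group of enhancers, R1, R2, R3, Rm and R4, 4 of which lie in introns of the neighbouring gene Nprl3. CTCF is a DNA-binding protein that halts the loop-extruding cohesin complex, and paired CTCF sites often mark the edges of a chromatin domain. HS-38 and HS-39 form such an edge on the side of Mpg, Rhbdf1 and Snrnp25. Mpg encodes a DNA glycosylase that removes alkylated purines, Rhbdf1 an inactive rhomboid protein, Snrnp25 a protein of the minor spliceosome, and Nprl3 a subunit of a complex that restrains mTORC1 signalling. Tri-C is a chromosome conformation capture method that digests crosslinked chromatin with NlaIII, which cuts at CATG, ligates it and captures the viewpoint fragment. After sequencing, reads that hold the viewpoint fragment and at least 2 other fragments are selected. Those other fragments are called reporters, and a contact here is a pair of reporters seen with the viewpoint on one read. Each contact thus places 2 reporters and the viewpoint on a single allele. Lower coordinates of chromosome 11 lie toward Snrnp25 and are called upstream, and higher coordinates lie toward the globin genes and are called downstream.

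The sequences below show the fragment taken as the R2 viewpoint and, for elements between and beyond the viewpoints, the NlaIII fragment of at most 300 bases that took the highest share of reporters over both viewpoints in the element's window. All are mm9 (NCBIM37) reference sequence on the plus strand, with AGATAA or TGATAA (either strand), a core bound by GATA factors, in capitals. The R2 viewpoint fragment is chr11:32150926-32151102, in an intron of Nprl3. It was inferred as the only fragment of the gap around R2 that neither viewpoint's tables hold, without the coordinates of the capture oligonucleotides, and 8 fragments of 60 bases or more in the region are absent from all tables.
R2 viewpoint: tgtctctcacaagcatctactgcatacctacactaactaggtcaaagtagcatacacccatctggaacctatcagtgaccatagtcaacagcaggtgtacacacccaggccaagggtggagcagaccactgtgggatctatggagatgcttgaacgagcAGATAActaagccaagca
R1: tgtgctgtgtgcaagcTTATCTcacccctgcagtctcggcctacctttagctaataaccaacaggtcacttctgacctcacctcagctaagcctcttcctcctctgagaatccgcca
HS-38/-39: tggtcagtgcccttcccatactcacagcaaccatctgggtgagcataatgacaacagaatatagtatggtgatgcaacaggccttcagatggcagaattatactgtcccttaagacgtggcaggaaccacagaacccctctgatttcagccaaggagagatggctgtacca
Rm: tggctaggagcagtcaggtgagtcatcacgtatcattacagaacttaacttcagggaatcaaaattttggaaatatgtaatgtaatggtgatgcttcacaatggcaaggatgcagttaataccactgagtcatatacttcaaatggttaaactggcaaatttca
The R1 fragment, chr11:32145844-32145960 in an intron of Nprl3, held 0.654%, 0.775% and 1.02% of reporter ends from R2 in samples 1, 2 and 3, and 0.0735%, 0.0885% and 0.134% from Mpg. The HS-38/-39 fragment, chr11:32136934-32137104, lies in an exon of an Nprl3 transcript that is not annotated as protein-coding. It was the reverse, with 0.145%, 0.183% and 0.106% from R2 and 0.493%, 0.625% and 0.494% from Mpg. The Rm fragment, chr11:32163335-32163498 in an intron of Nprl3, held 0.434%, 0.309% and 0.487% from R2 and 0.125%, 0.0714% and 0.106% from Mpg. The GATA core letters occur in both the R2 and the R1 fragment, and in 12.1% of the 512 NlaIII fragments of 50 to 300 bases in the region.

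The CTCF sites at the edges of the comparison were searched on both strands for CC, then any 3 bases, AG, any base and GGG, a pattern chosen after candidate matches had been looked at. It occurs in 20.0% of the 180 bins of 1 kb, so a match alone marks no site. The matches below are mm9 sequence, read on the minus strand, with the pattern in capitals and flanking bases on either side. For each site shown it is the match nearest the middle of the site's bin; further matches lie by Hbq-1, Hbq-2 and HS+44, on one strand or the other, and HS-29 and HS+48 have plus-strand matches that are not shown.
HS-38: accctgaggCCACCAGAGGGtagcagagg
Hbq-1: cacaagaggCCGCCAGGGGGcgctgcatc
Hbq-2: cacaagaggCCGCCAGGGGGcgctgcatc
HS+44: ttatagtggCCTGCAGGGGGcgccccaga
The match at HS-38, chr11:32138649-32138677, lies in an intron of Nprl3 between the viewpoints and is shown as in the reference, not as in D3839. It is also the only match found by HS-39, whose own bin holds none. The matches at Hbq-1, chr11:32186926-32186954, and at Hbq-2, chr11:32200031-32200059, both intergenic, are the same bases, 1 beside each adult globin gene. The match at HS+44, chr11:32221387-32221415, is intergenic and farther downstream.

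Contacts were kept where both reporters had their midpoint in a 180 kb region of chromosome 11, from the flank of Il9r to beyond HS+48, and outside 2 windows around the viewpoints, 32125001-32128000 at Mpg and 32149001-32153000 at R2, which left 173 of 180 bins of 1 kb. From R2 the D3839 samples 1, 2 and 3 retained 14515, 13103 and 14690 contacts, and from Mpg 18362, 17510 and 17521. The WT tables were shallower, with 7875 to 12110 contacts from R2 and 10075 to 15972 from Mpg. Each contact has 2 reporter ends, and a share is a percentage of the retained ends (or contacts) of that table, so a higher share in one place is balanced by a lower share elsewhere. A count of 0 allows a share of up to 3 contacts of the table's total, 0.0163% to 0.0229% of contacts in the D3839 tables, and this covers counting error only. Contacts within a single 1 kb bin made up 37.5% to 48.1% of the Mpg tables and 32.1% to 42.3% of the R2 tables in D3839.

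Reporter profiles from R2 and Mpg in D3839 overlapped far less than replicates of one viewpoint did. The overlap, the sum over 1 kb bins of the smaller of the 2 shares, was 47.1%, 51.3% and 49.6% in samples 1, 2 and 3, or 49.3% ± 2.11 (SD, n = 3). Replicates of a single viewpoint overlapped by 91% to 91.9% for R2 and 91.6% to 92.7% for Mpg, so every cross-viewpoint value lay below every replicate value. On 5 kb bin pairs the overlap was 41.3%, 45.3% and 43.8%, against 84.5% to 88.1% between R2 replicates and 84.5% to 88.7% between Mpg replicates. As a description across 173 bins that share library and base composition, the ranks of the bins correlated with Spearman's rho of 0.753, 0.781 and 0.779 in the 3 samples.

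**Figure D1:**
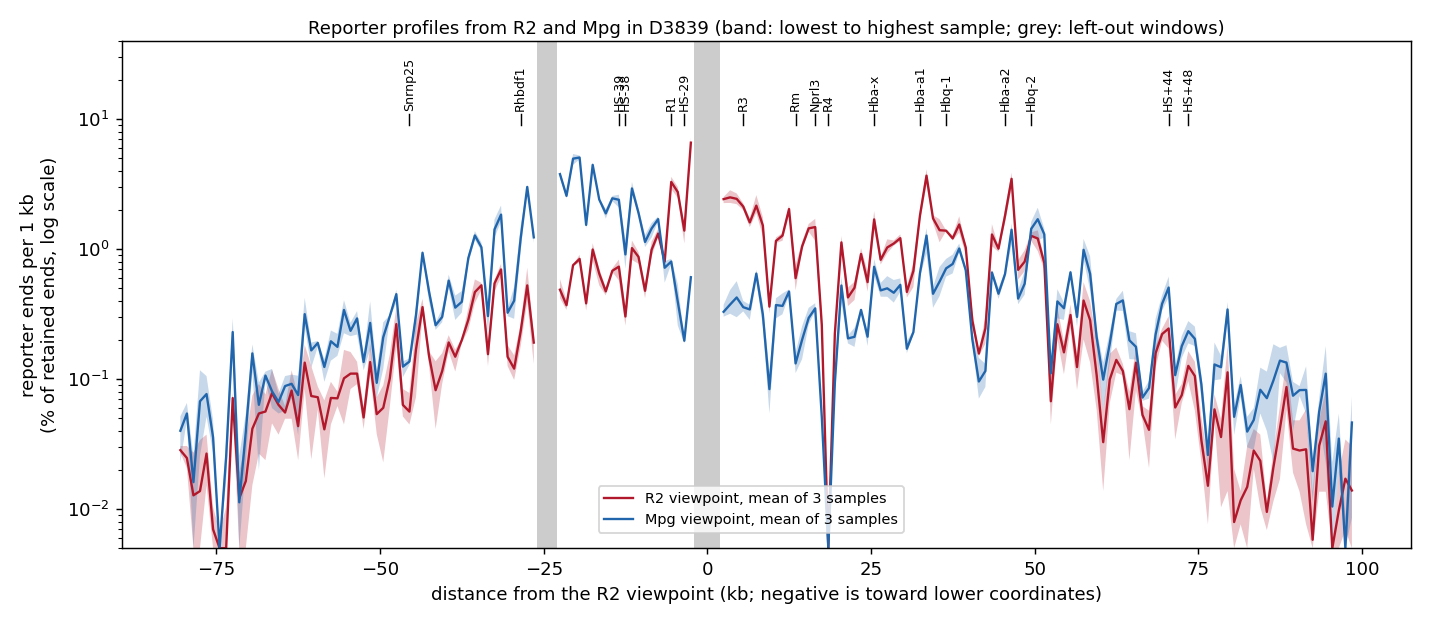
Reporter ends per 1 kb bin, as a percentage of retained ends on a log axis, against distance from the R2 viewpoint in kb, for the R2 (red) and Mpg (blue) viewpoints in D3839. Lines are means of 3 samples, bands run from the lowest to the highest sample, and grey marks the left-out windows. The lines cross between the viewpoints and again near Hbq-2.

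On the far side of Mpg the 2 profiles differed in height, and their shapes were nearly as alike as those of replicates. Upstream of Mpg, each profile scaled to its own total over that stretch, R2 and Mpg overlapped by 84.9%, 87.2% and 87.7% in samples 1, 2 and 3. Replicates overlapped by 83% to 85.7% for R2 and 88.5% to 90.9% for Mpg over the same bins. The cross-viewpoint values thus fell in the range spanned by replicates of the 2 viewpoints. Downstream of R4, where all globin genes lie, the shapes overlapped by 66.1%, 74.5% and 69.6%, below the 87.4% to 91.4% seen between replicates of either viewpoint. Rank correlations, again as a description, were 0.855, 0.904 and 0.893 upstream of Mpg and 0.851, 0.901 and 0.875 downstream of R4.

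**Figure D2:**
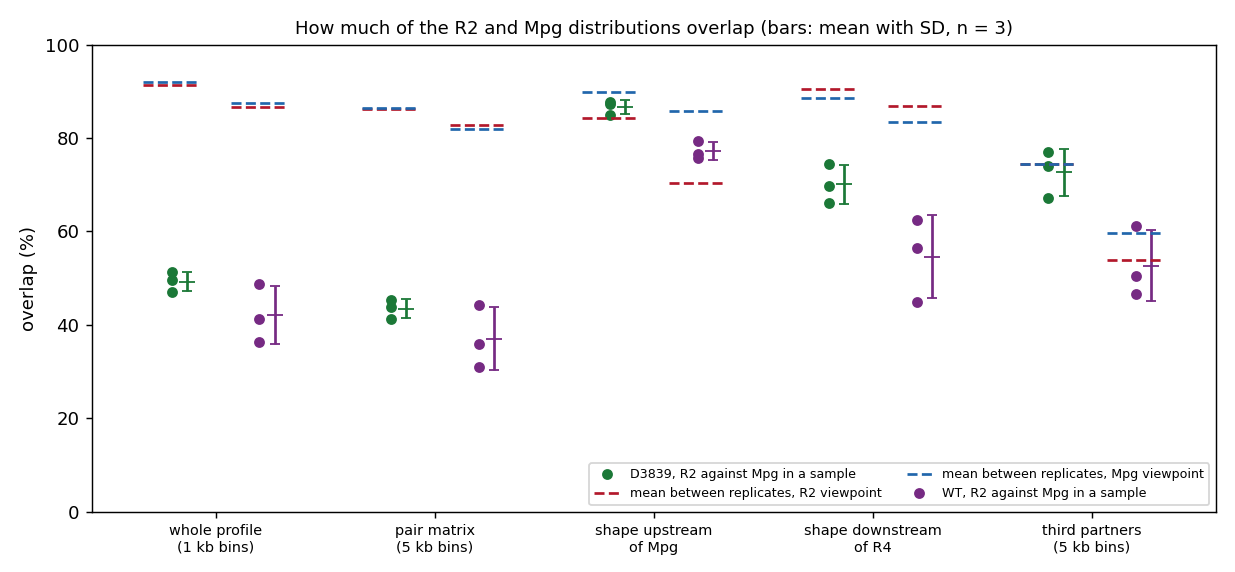
Overlap in percent of R2 and Mpg distributions within a sample (points; bars are the mean with SD, n = 3) for D3839 and WT, with dashed lines at the mean overlap between replicates of 1 viewpoint. In D3839 the whole profiles sit near 49.3% and the shapes upstream of Mpg near 86.6%, next to the dashed lines.

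Divided into 9 segments, reporter ends fell into blocks that changed hands between the viewpoints and then changed back. The Mpg body, from the left-out window to HS-39, held 29.7%, 28.7% and 29.2% of ends from Mpg in samples 1, 2 and 3 and 5.78%, 5.7% and 5.43% from R2. The stretch of Snrnp25 and Rhbdf1 upstream of Mpg held 17.2%, 17.2% and 15.7% from Mpg and 5.27%, 5.35% and 5.5% from R2. From HS-38/-39 to R1, Mpg still took the larger part, with 12.9%, 13.3% and 13.3% against 6.23%, 7.11% and 6.22%. The order turned in the next segment, R1 and HS-29 next to the R2 window, with 14.1%, 13.8% and 14.2% from R2 and 1.82%, 2.0% and 2.19% from Mpg.

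On the other side of R2 the enhancer stretch R3 to R4 held 24.7%, 25.2% and 24.2% of ends from R2 and 5.31%, 5.31% and 5.03% from Mpg. The embryonic gene Hba-x and its surroundings held 9.42% ± 0.775 from R2 and 4.2% ± 0.116 from Mpg. The adult globin and theta genes were the largest single segment for R2, at 29.6%, 26.6% and 27.8%, while Mpg placed 14.6%, 16.1% and 15.9% there. Beyond these genes the downstream flank again went to Mpg, with 9.1% ± 0.545 against 4.11% ± 0.35, and the Il9r flank at the other end did too, with 4.96% ± 0.129 against 2.21% ± 0.196 (SD, n = 3 throughout). In every one of the 9 segments the 3 R2 values and the 3 Mpg values did not overlap, and the exact sign-flip test over 3 samples cannot go below p = 0.25.

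**Figure D3:**
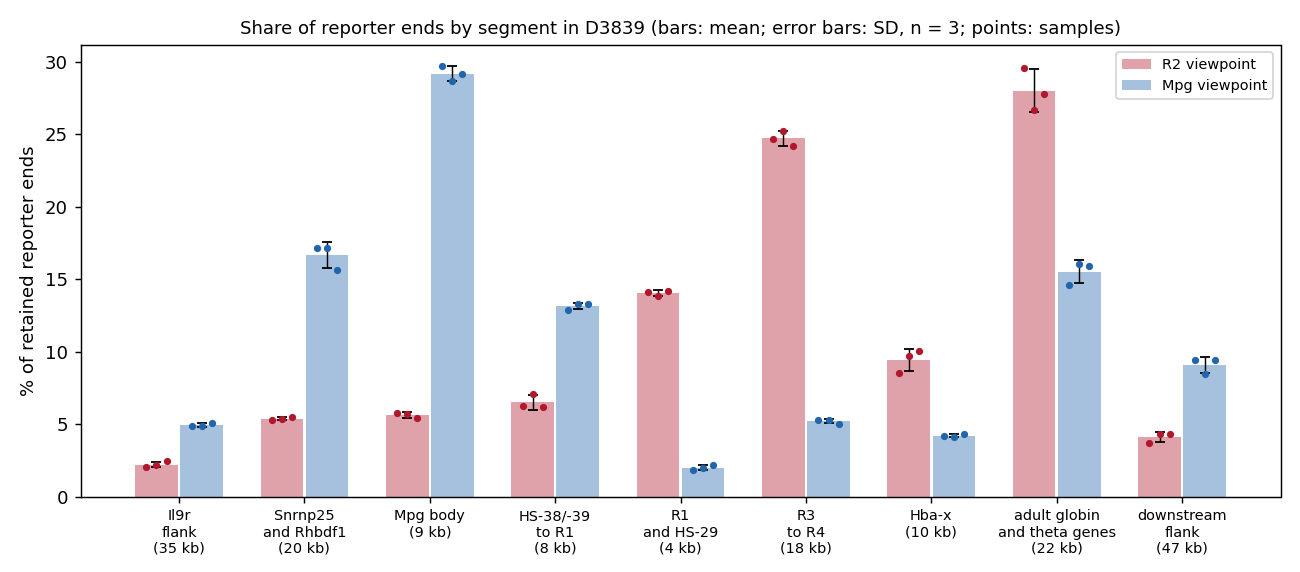
Percentage of retained reporter ends in each of 9 segments, ordered by coordinate, for the R2 (red) and Mpg (blue) viewpoints in the 3 D3839 samples; bars are means, error bars SD and points samples. The red bars exceed the blue ones in the 4 segments from R1 to the adult globin genes, where R2 reaches 28%.

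The switch between the viewpoints was sharp and lay beside R1. Of the 21 retained 1 kb bins between the left-out windows, Mpg had the larger share in the first 16, 16 and 17 of samples 1, 2 and 3, and R2 in all the rest. The first bin with more ends from R2 began at 32144001 in samples 1 and 2 and at 32145001 in sample 3, the last being the bin of R1. In WT the same point lay 1 to 3 kb closer to Mpg, at 32143001, 32142001 and 32142001 in its replicates 1, 2 and 3. The bins of HS-39 and HS-38, the sites with deleted motifs, were placed from the study's locus map. Both bins were on the Mpg side in every D3839 sample and in every WT replicate. In D3839 the HS-39 bin held 2.1%, 2.63% and 2.48% of ends from Mpg and 0.796%, 0.832% and 0.575% from R2. The HS-38 bin held 0.855%, 0.708% and 1.17% from Mpg and 0.258%, 0.366% and 0.286% from R2. In WT the HS-38 bin held means of 0.661% from Mpg and 0.541% from R2.

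Tested bin by bin, R2 and Mpg differed over most of the region. edgeR's quasi-likelihood test, with sample as a block and Benjamini-Hochberg adjustment over the 171 bins tested, gave a higher share from R2 in 48 bins (28.1%) and from Mpg in 92 bins (53.8%) at an adjusted p under 0.05, or 81.9% in either direction. With TMM scaling in place of library totals the split was 52 bins higher from R2 and 42 from Mpg, since the median log2 R2 over Mpg moved from -0.99 to -0.30. Of the 140 bins called, 90 were called the same way under both scalings and 4 turned sign. The scalings differed little between R1 and Hba-a2: all 4 bins of the R1 and HS-29 segment, all 17 bins tested of R3 to R4 and all 10 of the Hba-x segment were higher from R2 under both. All 9 bins of the Mpg body were higher from Mpg under both. The flanks depended on the scaling, with 22 of 34 bins of the Il9r flank and 32 of 47 of the downstream flank higher from Mpg in the main test and 5 and 11 under TMM.

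The enhancers were read mainly by R2. The window of R1, 5 bins of 1 kb around its position, held 8.95%, 9.97% and 9.76% of ends from R2 in samples 1, 2 and 3 and 3.56%, 3.88% and 4.02% from Mpg, a 2.5-fold ratio of means. For R3 the shares were 10.8%, 10.9% and 10.8% from R2 and 2.02%, 2.31% and 2.13% from Mpg, a 5.04-fold ratio. Rm, a mouse-specific member of the cluster, held 6.41% ± 0.335 from R2 and 1.47% ± 0.0715 from Mpg. R4, near the Nprl3 promoter, was lowest of the 4 from both viewpoints, with 3.1% ± 0.27 and 1.02% ± 0.0925. Its own 1 kb bin holds no reporter midpoint in any table, so the R4 window rests on neighbouring bins. Among them the Nprl3 promoter bin at 32167001 held means of 1.48% from R2 and 0.351% from Mpg. All 4 enhancer windows were without overlap between viewpoints, as were 28.5% of 1 kb bins in this direction and 47.1% in the other. From Mpg, R1 was the enhancer with the highest share, followed by R3, Rm and R4, and from R2 the order of R1 and R3 was the reverse, with 10.9% ± 0.0373 at R3 and 9.56% ± 0.54 at R1. R1 lies closer to Mpg than the others do and R3 lies about as far from R2 as R1 does, on its other side.

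Seen from R2, R1 stood above its surroundings, and seen from Mpg it did not. The share per kb in the R1 window was divided by that in the retained bins of the 7 kb on either side. The ratio was 1.15 ± 0.0818 from R2 and 0.527 ± 0.0318 from Mpg. The R3 window exceeded its surroundings from both viewpoints, by 1.18 ± 0.0381 from R2 and 1.4 ± 0.141 from Mpg. At Rm the ratios of 1.16 ± 0.0765 and 1.03 ± 0.0739 overlapped between samples. These surroundings include bins beside the R2 left-out window for R1 and R3, where R2 itself is at its highest. That window also cuts them to 10 kb for R1 and R3, against 14 kb for Rm. What is left lies mostly on the side toward Mpg for R1 and mostly on the side away from Mpg for R3. The part of this placement in the contrast of R1 with R3 from Mpg, whose shares fall with distance, was not tested.

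The globin promoters were also higher from R2, and the adult genes were above the embryonic one from both viewpoints. The Hba-a1 window held 9.16%, 7.73% and 8.23% of ends from R2 and 2.41%, 3.0% and 2.94% from Mpg, a 3.01-fold ratio. The Hba-a2 window held 8.54%, 7.72% and 8.61% from R2 and 3.35%, 3.81% and 3.6% from Mpg, a 2.31-fold ratio. The embryonic Hba-x window was lower from both, with 5.03% ± 0.447 from R2 and 2.27% ± 0.0993 from Mpg. Hba-a1 and Hba-a2 encode the adult α-globin chain and are near-identical copies, so a fragment present in both can be assigned to either only by unique flanking bases, and how ambiguous reads were placed is not given in the sources used here. At the adult genes themselves the bin at 32184001 by Hba-a1 held 4.12%, 3.11% and 3.82% from R2 and 0.929%, 1.46% and 1.44% from Mpg, and the bin at 32197001 by Hba-a2 held 3.89%, 2.97% and 3.58% and 1.09%, 1.58% and 1.56%. The log2 difference was 1.55 (SE 0.15; adjusted p = 2.3e-20) at the first and 1.31 (SE 0.15; adjusted p = 1.4e-15) at the second by edgeR. From R2 these were the highest bins downstream of R4 in each sample. From Mpg the highest in samples 1 and 3 was the bin at 32201001 next to Hbq-2, with 1.85%, 1.17% and 2.09% in samples 1, 2 and 3, and in sample 2 it was the bin at 32197001.

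The CTCF sites downstream divided in order of position. At Hbq-1, between the adult genes, R2 took 7.89%, 6.99% and 6.95% and Mpg 3.1%, 4.08% and 3.35%. At Hbq-2, beyond the second gene, the values met, with 4.57%, 4.83% and 4.86% from R2 and 5.51%, 4.84% and 5.84% from Mpg, and this was the only one of the 15 element windows in which the samples overlapped. Inside it the bins ran from higher from R2 to higher from Mpg, with log2 values of 0.73, 0.57, -0.18, -0.47 and -0.74 in bins 32198001 to 32202001; under TMM scaling the bins at 32200001 and 32201001 turned positive. The Hbq-2 window stood 2.15 ± 0.199 times above its surroundings from Mpg and 1.35 ± 0.0882 from R2. HS+44/+48, the outermost pair, had low shares from both, with 0.985%, 1.00% and 1.1% from R2 and 2.04%, 1.89% and 1.85% from Mpg, though it stood 2.02 ± 0.255 times above its surroundings from R2 and 1.47 ± 0.172 from Mpg.

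HS-29, a CTCF site between R1 and R2, showed the widest gap of all windows, 14.1%, 13.8% and 14.2% from R2 against 1.82%, 2.0% and 2.19% from Mpg. Its bins adjoin the R2 left-out window, and the bin next to that window at 32148001 alone held 7.23%, 6.15% and 6.44% from R2. HS-38/-39, midway, held 12.3%, 12.6% and 12.6% from Mpg and 3.94%, 4.4% and 3.92% from R2, a 3.06-fold ratio in favour of Mpg. Its window reached 0.934 ± 0.0181 of its surroundings from Mpg and 0.615 ± 0.0234 from R2, so neither viewpoint had a local peak there.

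The upstream genes were the mirror image of the globin genes. The Rhbdf1 promoter window held 6.15%, 6.64% and 5.78% of ends from Mpg and 0.996%, 1.5% and 1.17% from R2, a 5.07-fold ratio. Its bins adjoin the Mpg left-out window, and 3 of the 5 are lost when that window is widened. The Snrnp25 window, farther out, held 2.03%, 1.86% and 2.0% from Mpg and 0.758%, 0.805% and 1.17% from R2, a 2.15-fold ratio. The Nprl3 promoter, which lies among the enhancers, was higher from R2, with 4.27%, 4.58% and 3.88% against 1.04%, 0.805% and 0.85%. Beside these elements, the bins with the smallest p that start at least 10 kb from both windows were 4 bins around Rm and the Nprl3 promoter (32163001 to 32167001) and 1 beside Hba-a1 (32185001) for R2. For Mpg they were the HS-38 bin, its neighbour at 32139001 and bins at 32107001, 32114001 and 32115001, in the bodies of Snrnp25 and Rhbdf1. Under TMM scaling 12 of the 20 bins of the Snrnp25 and Rhbdf1 segment kept their call, where the main test called all 20. The bin at 32163001 held 1.83%, 2.11% and 2.18% from R2 and 0.49%, 0.483% and 0.445% from Mpg, with a log2 difference of 2.10 (SE 0.18; adjusted p = 1.4e-25). The bin at 32114001 held 0.351%, 0.24% and 0.269% from R2 and 0.912%, 0.78% and 0.873% from Mpg, with -1.58 (SE 0.23; adjusted p = 6.1e-11).

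Contact frequency fell with distance from both viewpoints over most bands, with rises in between. The slope of log share on log distance, over 5 kb bands from 5 to 50 kb, was -1.19, -1.3 and -1.15 upstream of R2 in samples 1, 2 and 3 and -1.4, -1.36 and -1.24 upstream of Mpg. The difference, R2 minus Mpg, was 0.213, 0.064 and 0.0978, the same sign in all 3 samples. Upstream of R2 the fall was broken by a rise from 0.268% per kb at 25 to 30 kb to 0.415% at 30 to 35 kb, seen in 3 of 3 samples. The mean slope difference of 0.125 rose to 0.422 with counts divided by fragments per bin and to 0.311 over 10 to 50 kb. Downstream, the slope was -1.39, -1.37 and -1.37 from Mpg and close to 0 from R2, with -0.0498, -0.0856 and -0.0322. From R2 the share per kb fell from 2.46% at 0 to 5 kb to 0.683% at 15 to 20 kb, rose to 1.67% at 30 to 35 kb and was 0.0894% at 60 to 65 kb, so the slope near 0 is that of a line through a fall and a rise. From Mpg the 50 kb limit falls at Hba-x and before the adult globin genes. The share per kb from Mpg was 0.204% at 40 to 45 kb, 0.341% at 45 to 50 kb and 1.1% at 70 to 75 kb. The downstream slopes thus depend on where the limit lies relative to the globin genes. The 3 slopes of each viewpoint did not overlap downstream, and the exact sign-flip test gave its smallest p of 0.25 for both sides.

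Of 32 bands tested, 14 (43.8%) had a higher share per kb from R2 and 13 (40.6%) from Mpg, 84.4% in all (edgeR, adjusted p under 0.05). Upstream, 8 of 12 bands were higher from R2 and none was higher from Mpg. The band 10 to 15 kb upstream, which spans HS-38/-39 from R2 and the body of Rhbdf1 from Mpg, held 0.723% per kb from R2 and 0.783% from Mpg, a log2 difference of -0.12 (SE 0.06; adjusted p = 0.12). Downstream, 6 of 20 bands were higher from R2 and 13 from Mpg. The R2 excess covered 20 to 50 kb and peaked at 30 to 35 kb, the distance of Hba-a1, with 1.67% ± 0.145 per kb from R2 and 0.353% ± 0.0345 from Mpg (SD, n = 3). At 70 to 75 kb, where Mpg meets Hba-a2 and Hbq-2, the values were 1.1% ± 0.115 from Mpg and 0.123% ± 0.0146 from R2, with log2 -3.17 (SE 0.08; adjusted p = 4.3e-07). Each viewpoint thus showed a rise at the adult genes at its own distance from them.

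**Figure D4:**
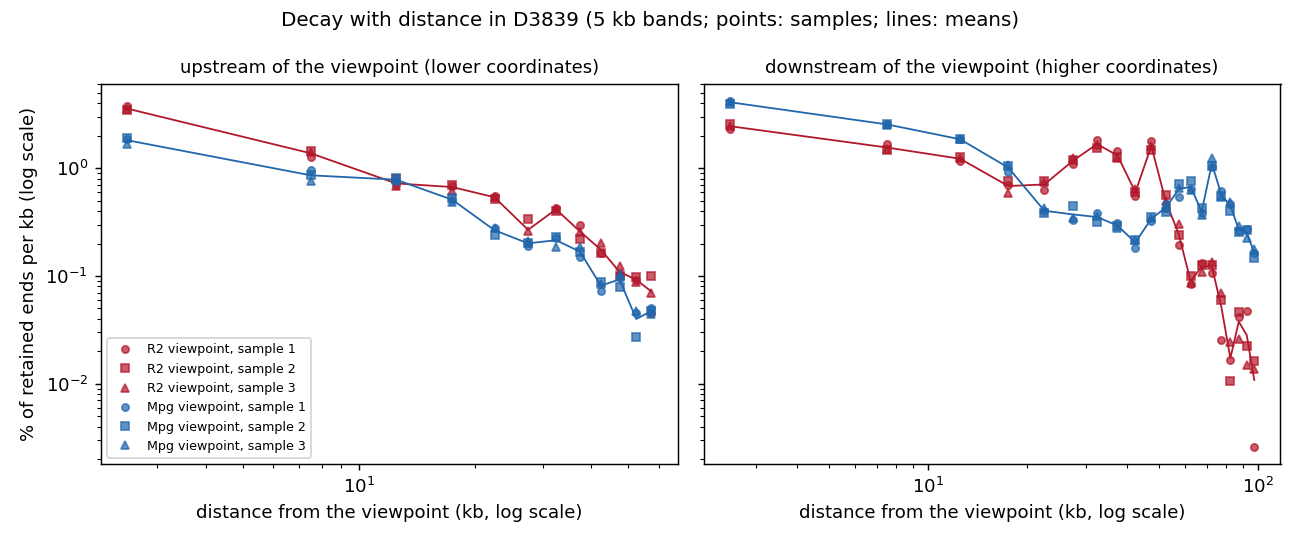
Percentage of retained ends per kb against distance from the viewpoint, both on log axes, in 5 kb bands upstream (left) and downstream (right) for R2 (red) and Mpg (blue) in D3839; points are samples and lines means. Upstream the points of both viewpoints fall along nearby lines, and downstream R2 lies below Mpg to 20 kb, above it from 20 to 50 kb and below it again from 55 kb.

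Ends downstream of the viewpoint made up 66.5%, 65.9% and 66.3% of all from R2 and 78%, 77.9% and 79.2% from Mpg. The difference of -12.2 ± 0.769 percentage points (SD, n = 3) shrank to -5.38 with the left-out windows widened by 3 kb and to -0.64 with counts divided by the NlaIII fragments per bin. The region extends farther downstream than upstream of both viewpoints.

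Contacts were next divided by whether each reporter lay upstream of Mpg, between the viewpoints, or downstream of R2. Pairs with both reporters downstream made up 57.7%, 55.7% and 58.1% of R2 contacts and 26.2%, 24.9% and 27.7% of Mpg contacts. Pairs with both between made up 36.4%, 33.9% and 36.8% from Mpg and 18.3%, 17.6% and 18.5% from R2. Pairs that bridge the whole interval, with 1 reporter upstream of Mpg and 1 downstream of R2, were rare from both viewpoints, at 3.88%, 4.4% and 3.66% from R2 and 5.57%, 6.69% and 4.86% from Mpg. Of the ends upstream of Mpg, 61.1%, 56% and 64.8% from R2 had a partner reporter that was also upstream of Mpg, against 71.9%, 64.7% and 72.3% from Mpg. Mpg was higher within each of the 3 samples, though the ranges of the viewpoints overlapped, and the exact sign-flip test cannot go below p = 0.25.

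Across 449 pairs of 5 kb bins, 80 (17.8%) were higher from R2 and 118 (26.3%) from Mpg by edgeR at an adjusted p under 0.05, 44.1% in all. The 118 fell to 74 without sample 2 and to 73 with the left-out windows widened. Among pairs with both bins downstream of R2, 56 of 135 were higher from R2 and 12 from Mpg. Among pairs with both bins upstream of Mpg, 20 of 47 were higher from Mpg and 0 from R2. Of the 109 bridging pairs, 13 were higher from Mpg, 0 from R2, and the other 96 did not pass the threshold in either direction. The pair with 1 bin at Hba-a1 and 1 at Hba-a2 (32180001-32185000 with 32195001-32200000) was the most abundant named one, with 779, 576 and 678 contacts from R2, 231, 319 and 316 from Mpg and a log2 difference of 1.57 (SE 0.18; adjusted p = 3.3e-17). Among pairs that start at least 10 kb from both left-out windows, that of smallest p for R2 was within 32165001-32170000 at the Nprl3 promoter, with 299, 263 and 285 contacts against 100, 50 and 80. Under the same limit, for Mpg it was within 32115001-32120000, in the body of Rhbdf1, with 717, 525 and 603 contacts against 215, 137 and 208 from R2.

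**Figure D5:**
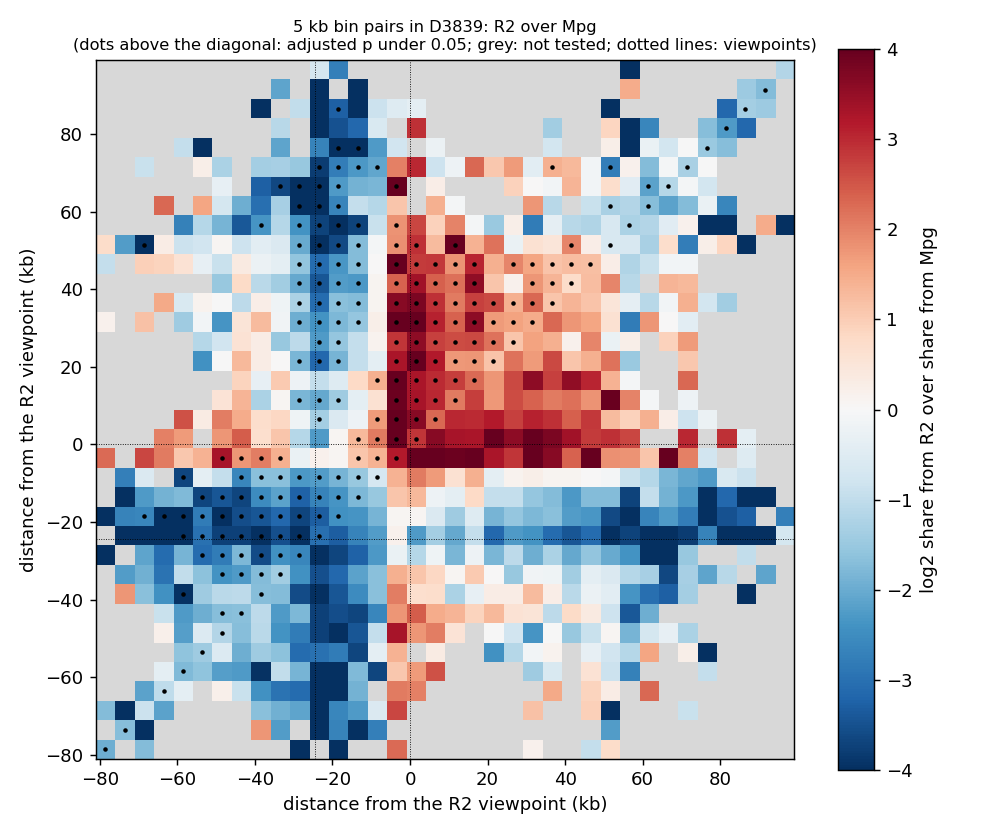
Log2 of the share from R2 over the share from Mpg for each pair of 5 kb bins in D3839, by distance of both bins from the R2 viewpoint in kb; red is higher from R2, blue higher from Mpg, grey not tested, and dots above the diagonal mark an adjusted p under 0.05. Red fills the part of the square downstream of R2 that reaches to the adult globin genes, its far part and the rows around Mpg are blue, and the blocks that join the upstream genes to the globin side are pale with few dots.

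Among the 15 elements, the 100 pairs whose windows do not overlap divided by kind, with 53 higher from R2, 14 higher from Mpg and 33 that did not pass the threshold. All 12 pairs of an enhancer with a globin promoter were higher from R2, by log2 values of 1.76 to 3.64. That compares with 53 of all 100 element pairs, 17.8% of all bin pairs and 56 of 135 bin pairs with both bins downstream of R2. All 3 pairs of the Nprl3 promoter with a globin promoter were higher from R2 as well. R1 with Hba-a1 was seen in 155, 120 and 122 contacts from R2 and 13, 21 and 9 from Mpg in samples 1, 2 and 3, a log2 difference of 3.57 (SE 0.38; adjusted p = 6.4e-19). R1 with Hba-a2 was seen in 138, 114 and 152 from R2 and 28, 21 and 29 from Mpg, a difference of 2.70 (SE 0.34; adjusted p = 1.5e-13). All 6 pairs among R1, R3, Rm and R4 were higher from R2 too, and R1 with R3, which flank the R2 viewpoint, had 153, 198 and 188 contacts against 29, 22 and 9. All 3 pairs among globin promoters were higher from R2. Hba-a1 with Hba-a2 had 809, 609 and 715 contacts from R2 and 240, 339 and 335 from Mpg. The difference was 1.56 (SE 0.17, adjusted p = 1.4e-17 by edgeR). Contacts assigned to both genes were thus seen from both viewpoints in every sample. The 2 genes are near-identical, so 2 fragments of 1 copy assigned to different copies would also be counted here, which was not tested. Hba-x with Hba-a2 lost its call under TMM scaling (adjusted p = 0.085).

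Pairs with the Rhbdf1 promoter leaned toward Mpg. Of its 14 pairs none was higher from R2 and 8 were higher from Mpg, of the 14 among all 100 element pairs, those with Snrnp25, HS-38/-39, Hba-x, Hba-a1, Hbq-1, Hba-a2, Hbq-2 and HS+44/+48. The other 6, with R1, HS-29, R3, Rm, the Nprl3 promoter and R4, did not pass the threshold. Rhbdf1 with R1 had 28, 33 and 25 contacts from R2 and 51, 59 and 71 from Mpg (log2 -0.73, SE 0.42, adjusted p = 0.15), and it did pass with each fragment pair counted once (log2 -0.79, adjusted p = 0.0097). Rhbdf1 with HS-29 had 41, 28 and 18 and 33, 52 and 43 contacts (log2 -0.26, SE 0.45, adjusted p = 0.69). Rhbdf1 with Hba-a1 had 8, 3 and 7 contacts from R2 and 31, 22 and 21 from Mpg (log2 -1.72, SE 0.62, adjusted p = 0.013), and with the left-out windows widened, which removes the 3 bins of this window next to Mpg, it was 0.37 with an adjusted p of 0.92. Rhbdf1 with Hba-a2 was -1.42 (adjusted p = 0.032) and lost its call in each fit that left out a sample. Both this call and that of Rhbdf1 with Hba-a1 were lost in DESeq2. An interval of 2 SE around the 6 values not called still spans differences of over 2-fold.

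Of the 14 pairs of the Snrnp25 promoter 2 were higher from R2, against 53 of all 100 element pairs. Another 2, those with Rhbdf1 and HS-38/-39, were higher from Mpg, against 14 of all 100. Snrnp25 with HS-29 had 18, 27 and 9 contacts from R2 and 3, 5 and 5 from Mpg, a log2 difference of 2.29 (SE 0.68; adjusted p = 0.0023). Snrnp25 with R3 had 10, 6 and 16 from R2 and 1, 3 and 0 from Mpg, a difference of 3.19 (SE 1.04; adjusted p = 0.0061). Snrnp25 with HS-38/-39 was the reverse, with 0, 1 and 3 from R2 and 46, 48 and 29 from Mpg, a difference of -4.48 (SE 0.74; adjusted p = 1.6e-08). Snrnp25 with R1 had 13, 18 and 5 and 20, 10 and 10 contacts and a difference of 0.14 that changed sign with the processing. Its pairs with Rm (log2 0.64, SE 1.05, adjusted p = 0.67), Nprl3 (log2 2.68, SE 2.04, adjusted p = 0.29) and R4 (log2 2.61, SE 1.98, adjusted p = 0.29) did not pass the threshold. Its pairs with Hba-x, Hba-a1 and Hba-a2 held 0 to 13 contacts per table and did not pass either.

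Pairs with the deleted sites HS-38/-39 went both ways, and an order by position of the partner was not tested. Of 14 pairs 7 were higher from Mpg, again of 14 among all 100, those with Snrnp25, Rhbdf1, Hba-x, Hba-a1, Hbq-1, Hbq-2 and HS+44/+48, and 1, with HS-29, was higher from R2. With R1 the contacts were 102, 61 and 76 from R2 and 141, 132 and 119 from Mpg (log2 -0.40, SE 0.30, adjusted p = 0.27). With R3 they were 53, 42 and 37 and 34, 55 and 38 (log2 0.40, SE 0.42, adjusted p = 0.45). The pairs with Rm, Nprl3, R4 and Hba-a2 did not pass the threshold either, though Hba-a2 did under TMM scaling (log2 -1.18, adjusted p = 0.027). Among CTCF sites, Hbq-1 with Hbq-2 had 258, 160 and 187 contacts from R2 and 136, 187 and 140 from Mpg, a difference of 0.71 (SE 0.24; adjusted p = 0.0083), which under TMM scaling was 0.55 (adjusted p = 0.055).

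Contacts of each viewpoint with the flanks of the other were compared from either end. Contacts were counted where 1 reporter lay within 3 kb of the other viewpoint's window and the other reporter lay outside the flanks. The flanks are the 3 kb on either side of both left-out windows, so contacts with both reporters in them were not counted. From R2 the counted contacts numbered 266, 249 and 238 in samples 1, 2 and 3, and from Mpg 331, 426 and 333. The windows themselves are left out, so both sets hold contacts with the flanks of a viewpoint and not with its own fragment. These flanks include the Rhbdf1 promoter bin beside Mpg and the HS-29 bin beside R2. The other reporter is called the additional partner, and contacts of R2 with Mpg itself were not counted. The 5 kb distributions of additional partners overlapped by 74.1%, 76.9% and 67.1%. Replicates of a single viewpoint overlapped by 70.8% to 77.2% for R2 and 69.8% to 79.8% for Mpg, so the values of samples 1 and 2 lay within both ranges and that of sample 3 below them.

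By segment, additional partners fell from R2 and Mpg as follows. Bins within 3 kb of either left-out window cannot hold one, so the segments next to these windows are shortened. The same applies to element windows that reach into these bins, R3 among them. The adult globin and theta genes held 17.8% ± 2.61 of them from R2 and 16.5% ± 3.29 from Mpg (SD, n = 3). The Mpg body held 20.6% ± 3.68 and 15.4% ± 6.14, and HS-38/-39 to R1 16.7% ± 0.849 and 16.3% ± 2.93. R3 to R4 held 13.8% ± 5.49 and 18.4% ± 0.869. Of the segment R1 and HS-29 only the R1 bin is left, with 3.58% ± 0.201 and 5.5% ± 3.73. The Il9r flank held 2.94% ± 2.33 and 3.62% ± 1.89, and the downstream flank 6.02% ± 1.31 and 7.31% ± 1.19. Snrnp25 and Rhbdf1 held 10.3% ± 4.34 and 11.1% ± 2.63. In none of these 8 segments did the difference have the same sign in all 3 samples, whereas Hba-x was higher from R2 in all 3, with 8.22% ± 1.21 against 5.97% ± 1.79. Of the 15 element windows, HS-38/-39, R3, Snrnp25 and Hbq-2 had the same sign in all 3. HS-38/-39 held 15.5% ± 2.35 from R2 and 10.1% ± 0.12 from Mpg. R3 held 4.22% ± 0.782 and 7.67% ± 2.35, and Snrnp25 and Hbq-2 were both higher from R2. These windows rest on 1 to 46 contacts per table, and the sign-flip p was 0.25 for each. With 3 samples a shared sign has a probability of 0.25 where the viewpoints do not differ.

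Most bins that told the viewpoints apart in D3839 told them apart in WT too. Of the 140 bins of 1 kb called in D3839, 125 were called the same way in WT, where 49 bins (28.7% of 171) were higher from R2 and 92 (53.8%) from Mpg, 82.5% in all. The profile overlap in WT was 41.2%, 36.4% and 48.8%, and the exact permutation test of D3839 against WT gave p = 0.20, where 3 against 3 cannot go below 0.1. WT replicate 3 lay within the D3839 range. The overlap of shapes upstream of Mpg was 76.5%, 75.8% and 79.4% in WT and downstream of R4 56.5%, 45% and 62.4%, both below every D3839 value (exact permutation p = 0.1 each). Replicates of the shallower WT tables overlapped less as well, upstream by 65.5% to 75% for R2 and 84.7% to 86.5% for Mpg. The WT upstream values thus also lay in the range spanned by their replicates. Downstream, WT replicates overlapped by 79.5% to 88.1%, above every cross-viewpoint value. Additional partners overlapped by 46.6%, 50.4% and 61.1% in WT from 91 to 153 contacts per table, where WT replicates overlapped by 52.1% to 55.8% for R2 and 56.8% to 61.8% for Mpg. Thinned to 91 contacts in every table, the mean of that overlap was 65.4% in D3839 and 51.9% in WT, and since WT replicates also overlapped less, the lower WT value is not shown to be a difference between viewpoints.

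No single bin or pair of bins passed the test of whether the viewpoint difference itself differed between D3839 and WT. edgeR's interaction test called 0 of 172 bins (0%) and 0 of 552 bin pairs (0%), with 14 bins more toward R2 and 18 more toward Mpg at an unadjusted p under 0.05, and 7 and 20 bin pairs. DESeq2 called 10 bins and 0 bin pairs. Without WT replicate 3 edgeR called 16 bins and 3 bin pairs, and with TMM scaling 28 bins and 0 bin pairs. All 28 were toward Mpg, and at an unadjusted p under 0.05 TMM scaling gave 1 bin toward R2 and 45 toward Mpg, so the balance of directions depended on the scaling. With library totals as scaling, the difference from WT leaned toward R2 in 92 of 171 bins and toward Mpg in 79. It leaned toward Mpg in all 8 bins tested from HS-38/-39 to R1, all 4 of R1 and HS-29 and all 17 of R3 to R4. The same lean held in 9 of 10 bins of Hba-x and 19 of 22 of the adult globin and theta genes. It leaned toward R2 in 17 of 20 bins of Snrnp25 and Rhbdf1 and 7 of 9 of the Mpg body. The flanks also leaned toward R2, in 29 of 34 bins of the Il9r flank and 35 of 47 of the downstream flank. At HS-38/-39 the log2 R2 over Mpg of the window was -1.61 in D3839 and -1.08 in WT, and at R1 1.32 and 1.97 (exact permutation p = 0.1 for both). At Hba-a2 they were 1.21 and 1.57 (exact permutation p = 0.4). Retained contacts were 58.4% of all chromosome 11 contacts from R2 in D3839 and 43.4% in WT on average, and 49.98% and 36.3% from Mpg; the part of this difference and of the kit in the contrast with WT was not tested.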

How the data were processed

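Tri-C libraries of 3 D3839 and 3 WT samples were compared, each read from R2 and Mpg. The authors mapped reads to mm9 with Bowtie after Trim Galore (versions not given in the sources used here), ran CCseqBasic with NlaIII, removed spurious ligations and PCR duplicates, and deposited unnormalized counts of reads for each pair of fragments on reads with at least 2 reporters.

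From these counts, reporter ends were summed by fragment midpoint in 1 kb bins, 5 kb distance bands and pairs of 5 kb bins. Features with at least 10 counts over the tables were tested with edgeR 4.0.16 (R 4.3.3; quasi-likelihood, library totals as scaling, Benjamini-Hochberg over all features), with DESeq2 1.42.0 as an alternative. The 2 tables of a sample come from one library, so sample was a block. Overlaps, slopes and shares were computed per sample and tested by exact sign-flip (3 pairs, smallest p 0.25) or exact permutation over samples (3 against 3, smallest p 0.1). Element positions were read to 1 kb from the study's locus map and gene starts from the mm9 annotation, and windows reach 2 bins either side. The motif or signal of HS-29, R3 and R4 need not lie in the bin used. Named bins and pairs were the 5 of smallest p in each direction that start at least 10 kb from both left-out windows. Fits were tested on simulated data with a log2 change of 1.5, where 40 of 40 changed bins among 171, 37 of 40 pairs among 515 and 8 of 8 bands among 32 were recovered, with 1, 5 and 0 false calls. The members, elements and tests were chosen with earlier results of these data known. Counts are reads without molecular identifiers, so counting error is a lower limit.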

Additional observations from a re-analysis of the deposited data

Results flagged for a closer look

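The difference between the decay slopes upstream of the 2 viewpoints, R2 minus Mpg, had opposite signs in the genotypes. It averaged 0.125 in D3839, positive in 3 of 3 samples, and -0.526 in WT, negative in 3 of 3 samples. The exact permutation test between genotypes gave p = 0.1, the smallest that 3 against 3 allows, and the library kit cannot be told apart from the genotype here.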

How the results depend on the processing

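The segment shares, both slopes and all overlap differences from WT kept their direction under every alternative run. In bins of 2 kb, 27 were higher from R2 and 53 from Mpg; under TMM scaling 42 bins of 1 kb were higher from Mpg. In bands of 10 kb, 8 were higher from R2 and 7 from Mpg. Of pairs of 10 kb bins, 28 were higher from R2 and 56 from Mpg, and with wider left-out windows 73 pairs of 5 kb bins were higher from Mpg. Bins whose viewpoint difference differed from WT, 0 in edgeR, numbered 28 under TMM, 10 with DESeq2, 6 without contacts inside a bin, 2 with each fragment pair counted once, 3 without adjacent fragments (added after seeing the data) and 3 in bins of 2 kb. Leaving out a sample gave 44 to 47 bins higher from R2 and 64 to 74 from Mpg, 67 to 72 bin pairs higher from R2 and 74 to 89 from Mpg, 12 to 16 bands higher from R2, and 0 to 16 bins (5 without WT replicate 2, 16 without WT replicate 3) and 0 to 3 bin pairs that differed from WT. The Snrnp25 and R1 pair turned to -0.0086 under TMM, -0.032 without contacts inside a bin, -0.53 with wider windows, -0.019 without adjacent fragments, and -0.47 to 0.46 when a sample was left out. The Rhbdf1 and Hba-a1 pair turned to 0.37 with wider windows, and its call and that of Rhbdf1 and Hba-a2 were lost in DESeq2. The upstream slope difference was 0.422 with counts divided by fragments per bin and 0.311 over 10 to 50 kb. The cause of these shifts was not tested.

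Without the replicate block, which pairs the tables of a sample, 48 bins were higher from R2 and 91 from Mpg, 85 and 143 bin pairs, and 15 and 13 bands; 0 bins and 0 bin pairs differed from WT, and the HS-38/-39 and Hba-a2 pair passed the threshold (log2 -1.01, adjusted p = 0.035, edgeR).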
